A study of Mus musculus with 6 samples.

Results

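Respiratory complex I is the first enzyme of the mitochondrial respiratory chain, and its transcripts were compared between sinoatrial node (SAN) tissue of HCN4FEA and WT mice. The genes were those whose symbol begins with Nduf followed by a, b, c, s, v, ab or af, with a probe set assigned to that symbol alone. They numbered 42 of the 22180 genes that had such a probe set, and each was represented by its brightest probe set over the 6 arrays. By role, 32 encode subunits of complex I, 8 encode assembly factors, and 2 carry the family name without being complex I subunits (Ndufa4 and Ndufa4l2). A further 6 probe sets name an Nduf gene together with another gene, among them all those of Ndufs6, Ndufb2 and Ndufb4, and are described apart. Subunits encoded in mitochondrial DNA were not analysed here.

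HCN4FEA mice carry a homozygous knockin in Hcn4, which encodes the predominant pacemaker channel of this tissue, and the exchange is present in every cell of the body. A tyrosine to phenylalanine exchange in the C-linker and, in the cyclic nucleotide-binding domain, arginine to glutamate and threonine to alanine exchanges leave a channel that no longer responds to cAMP. The line was made by homologous recombination in embryonic stem cells and kept on a mixed genetic background. Total RNA of dissected SAN tissue from adult HCN4FEA mice and from adult WT mice was hybridised to Affymetrix whole-transcript arrays, 3 arrays for each genotype. The methods give an n of 3 for the mice of each genotype, which equals the number of arrays, and the labels do not name the animal behind an array. The p-values reflect array-to-array spread. Values are log2 signals after robust multi-array averaging (RMA), and a difference of 1 is a doubling.

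Array medians lay between 2.44 and 2.51. Of 9 measured markers of pacemaker tissue 8 averaged at least 4, and Vsnl1, Rgs6 and Smoc2 led the list. All mice are labelled male, yet Xist, the transcript of the inactive X chromosome, read 8.97 to 9.43 on the 6 arrays, whereas the Y-linked Uty, Eif2s3y and Kdm5d averaged 1.29, 1.38 and 1.41, within the range of olfactory and vomeronasal receptor probe sets (median 1.2, 95th percentile 1.83, 1405 probe sets). Transcripts of neurons separated the arrays irrespective of genotype. The synaptic gene Snap25 read 1.72, 1.49 and 7.96 in HCN4FEA and 7.27, 1.52 and 1.78 in WT SAN. Arrays HCN4FEA 3 and WT 1 therefore stand apart, and results were also obtained without them.

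Complex I passes electrons from NADH to ubiquinone and pumps protons across the inner mitochondrial membrane. It is built from an N module that oxidises NADH, a Q module that reduces ubiquinone, and a membrane arm of proximal and distal parts that holds the proton pumps. Core subunits carry the flavin, the iron-sulphur clusters and the pumps, accessory subunits surround them, and assembly factors join the modules and leave. Cardiac myocytes are rich in mitochondria, and the regulators PGC-1α, NRF1 and YY1 are known to act on many nuclear respiratory genes.

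Stretches of 300 bases around the transcription start, 250 before and 50 after it, were found in RefSeq (GRCm38.p6) for 37 of the 42 genes. The word AAGATGGC, the core of the YY1 motif, lay on either strand in 7 of them (18.9%), against 3.19% of all 27025 genes with such a stretch and 5.88% of the 6207 whose probe set averaged at least 4. In all 7 genes it lay on the gene's own strand and began 11 to 39 bases after the start. The windows of 30 bases below show these sites with their flanks, and the word is in capitals.
Ndufa3 (chr7:3617384-3617413, + strand, base 23 after the start): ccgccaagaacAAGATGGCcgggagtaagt
Ndufa9 (chr6:126849097-126849126, - strand, base 30): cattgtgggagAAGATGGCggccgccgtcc
Ndufaf8 (chr11:120098933-120098962, + strand, base 11): aggcagggcccAAGATGGCggcgccctcga
Ndufb8 (chr19:44555393-44555422, - strand, base 39): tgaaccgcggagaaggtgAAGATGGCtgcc
Ndufc1 (chr3:51408915-51408944, - strand, base 23): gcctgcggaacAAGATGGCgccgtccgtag
Ndufs4 (chr13:114388045-114388074, - strand, base 36): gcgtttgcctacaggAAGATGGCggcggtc
Ndufs7 (chr10:80249462-80249491, + strand, base 25): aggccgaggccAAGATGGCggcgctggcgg

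The NRF1 motif, searched as a word of 10 letters with 1 free position, lay in another 7 genes (Ndufa5, Ndufa6, Ndufa8, Ndufa11, Ndufaf4, Ndufaf5 and Ndufs5), which is 18.9%, against 5.19% of all genes and 12.6% of those averaging at least 4. No complex I gene held both the YY1 and the NRF1 word. The window of Ndufs5 is shown because its probe set was the one that passed an unadjusted threshold below, and its word, in capitals, reads on the opposite strand.
Ndufs5 (chr4:123718265-123718294, - strand, first base 98 before the start): gctgcttgctGCGCAGGCGCagacccgctg

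The ETS word CCGGAAGT was found in Ndufs3 alone (2.7%, against 4.31% of all genes and 9.31% of those averaging at least 4). The word TNAAGGTCA of the estrogen-related receptors was in no complex I gene, against 1.43% of all genes and 0.725% of those averaging at least 4. All 4 words were searched on both strands, and a match describes letters only.

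Complex I transcript levels differed little between the genotypes. The median log2 fold change, HCN4FEA minus WT, was -0.01 over the 42 genes and 0.01 over all 25341 probe sets tested. It was 0.04 over the 7761 genes averaging at least 4, and -0.01 over the 40 complex I genes at that level. The median size of a difference irrespective of sign was 0.08 for complex I genes and 0.11 for all probe sets. The differences ran between -0.37 (Ndufs5) and 0.47 (Ndufa4l2), with 16 above and 26 below 0. Of all probe sets 13435 lay above and 11906 below 0. Of genes averaging at least 4, 4636 lay above and 3125 below 0. In 38 genes the difference was smaller than 0.25, and in 27 it was smaller than the SD within genotypes. With limma no gene passed after Benjamini-Hochberg adjustment over all probe sets (lowest adjusted p = 0.788), and neither did any other probe set tested (0.0%). At an unadjusted p under 0.05, 1 complex I gene was lower and 0 were higher (2.38%), whereas 6.1% of all probe sets passed, 3.4% higher and 2.71% lower. With the study's added minimum of a 1.5-fold change 0 complex I genes passed, against 1.13% of all probe sets. The arrays of the genotypes did not overlap for 4 genes (9.52%), of which Ndufaf2 and Ndufb7 were higher and Ndufa3 and Ndufs5 lower, against 11.2% of all probe sets (6.31% higher, 4.92% lower). The share of separated genes was close to that of all probe sets, and the share past an unadjusted p of 0.05 rested on 1 gene.

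The precision of these values allows bounds on the size of any change. The 95% confidence interval lay within a 1.25-fold change in either direction for 17 genes (40.5%) and within 1.5-fold for 36 (85.7%). These shares were 14.5% and 74.7% for all probe sets, and 18.3% and 79.5% for genes averaging at least 4. It lay within 2-fold for 40 genes (95.2%), the exceptions being Ndufa4l2 and Ndufaf8, against 96.2% of all probe sets and 96.8% of genes averaging at least 4. The median SD within genotypes was 0.119 for complex I genes, against 0.172 for all probe sets and 0.154 for the 7761 genes averaging at least 4. With 3 arrays in each genotype the exact two-sided permutation test of a single gene cannot go below p = 0.1, which the 4 separated genes reached. In tissue RNA, fewer cells of a type and less RNA per cell cannot be told apart.

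**Figure D1:**
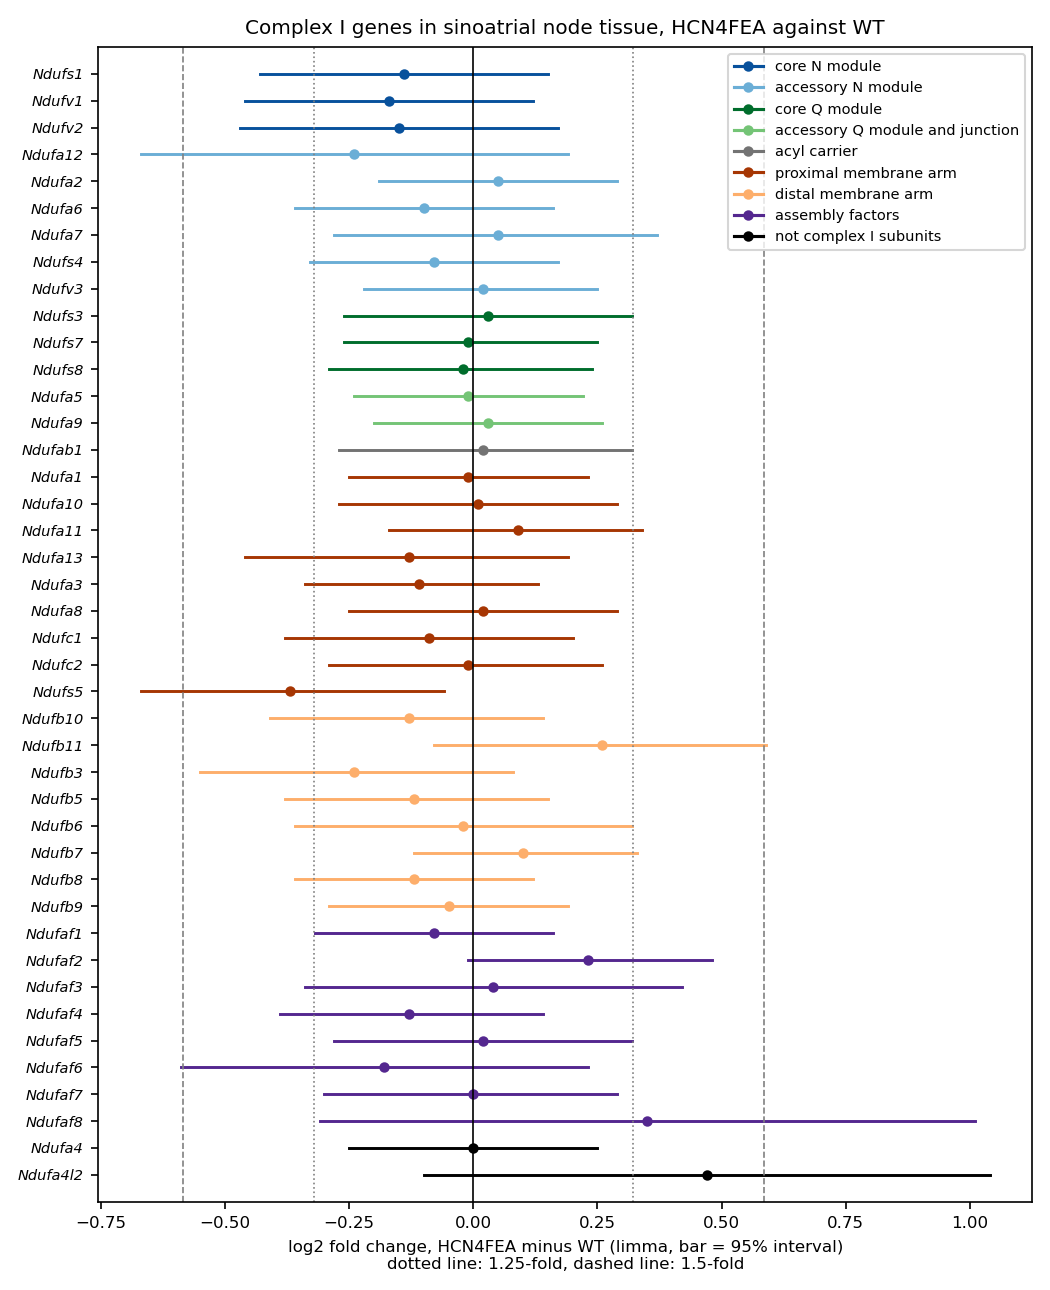
The log2 fold change (HCN4FEA minus WT, x axis) of each of the 42 genes (y axis) is plotted as a point with its 95% interval from limma, coloured by module. All intervals but that of Ndufs5 include 0, and those of Ndufaf8 and Ndufa4l2 are the widest.

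The 3 measured core subunits of the N module all had a difference below 0 (HCN4FEA minus WT), with a median of -0.15. This median moved with single arrays, and was -0.08 without HCN4FEA 3, -0.09 without WT 3, -0.23 without HCN4FEA 2 and -0.06 without both HCN4FEA 3 and WT 1. Ndufv1, which binds NADH and the flavin, read 8.48, 8.57 and 8.30 in HCN4FEA and 8.51, 8.58 and 8.78 in WT SAN, a difference of -0.17 (95% interval -0.46 to 0.12, adjusted p = 0.890). The 2 ranges overlapped. Ndufv2, an iron-sulphur subunit, read 8.58, 8.33 and 8.24 in HCN4FEA and 8.57, 8.35 and 8.68 in WT SAN, a difference of -0.15 (-0.47 to 0.17). Ndufs1, which carries several iron-sulphur clusters, read 7.67, 7.87 and 7.49 in HCN4FEA and 7.83, 7.80 and 7.83 in WT SAN, a difference of -0.14 (-0.43 to 0.15). The highest Ndufs1 value was HCN4FEA 2, and for all 3 genes the lowest of the 6 arrays was HCN4FEA 3. None passed an unadjusted p of 0.05. The 6 measured accessory subunits of this module had a median of -0.03 and ran between -0.24 and 0.05.

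Ndufa12, the accessory N module subunit at the lower end, read 10.21, 9.86 and 9.63 in HCN4FEA and 10.34, 10.21 and 9.87 in WT SAN. Its mean was 9.90 ± 0.29 in HCN4FEA and 10.14 ± 0.24 in WT SAN (SD, n = 3 each), a difference of -0.24 (-0.67 to 0.19, adjusted p = 0.895). Each genotype alone spanned more than this difference. A second Ndufa12 probe set differed by -0.18 (-0.65 to 0.29). With 1 array left out the difference ran from -0.40 (without HCN4FEA 1) and -0.38 (without WT 3) to -0.14 (without WT 1) and -0.10 (without HCN4FEA 3), and without both HCN4FEA 3 and WT 1 it was -0.01. Ndufs4, whose loss in mice serves as a model of Leigh syndrome, differed by -0.08 (-0.33 to 0.17).

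The 3 measured core subunits of the Q module differed by at most 0.03 in size. Ndufs7, which holds the terminal iron-sulphur cluster next to ubiquinone, read 7.47, 7.40 and 7.29 in HCN4FEA and 7.29, 7.49 and 7.40 in WT SAN, a difference of -0.01 (-0.26 to 0.25). Ndufs8, the carrier of the neighbouring clusters, read 8.77, 8.96 and 8.82 in HCN4FEA and 8.76, 8.89 and 8.98 in WT SAN, a difference of -0.02 (-0.29 to 0.24). Ndufs3, which forms part of the module's scaffold, read 4.96, 4.97 and 4.84 in HCN4FEA and 5.08, 4.73 and 4.87 in WT SAN, a difference of 0.03 (-0.26 to 0.32). The genotypes overlapped for each, and the intervals of all 3 lay within 1.25-fold. The accessory subunits Ndufa5 and Ndufa9 differed by -0.01 and 0.03. Ndufa5 was also the steadiest of all 42 genes, with a span of 0.09 over the 6 arrays. Ndufab1, the mitochondrial acyl carrier protein, differed by 0.02.

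In the membrane arm, which here comprised accessory subunits only, the proximal part (9 genes) had a median of -0.01 and the distal part (8 genes) a median of -0.08. Ndufs5 was the single gene past an unadjusted p of 0.05. It read 1.52, 1.17 and 1.24 in HCN4FEA and 1.72, 1.77 and 1.54 in WT SAN, a difference of -0.37 (-0.67 to -0.06, limma unadjusted p = 0.0246, adjusted p = 0.788). The closest values of the genotypes were 0.02 apart, and all 6 lay below the receptor 95th percentile of 1.83. This probe set was therefore within the range of background signal. It did not pass when HCN4FEA 2, HCN4FEA 3, WT 1 or WT 2 was left out, nor by the methods' t-test. A brighter probe set shared by Ndufs5 and its pseudogene read 7.68, 8.76 and 8.56 in HCN4FEA and 8.58, 8.63 and 7.27 in WT SAN, a difference of 0.17 (-0.78 to 1.12). Its sign was opposite and its spread within each genotype exceeded the difference.

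Ndufb3, a distal subunit that averaged under 4, read 3.38, 3.70 and 3.74 in HCN4FEA and 3.73, 3.95 and 3.85 in WT SAN, a difference of -0.24 (-0.55 to 0.08). HCN4FEA 3 overlapped WT 1 by 0.01, and without HCN4FEA 1 the difference was -0.12 and without both HCN4FEA 3 and WT 1 -0.36. Ndufb11, which is encoded on the X chromosome, read 6.19, 6.33 and 6.06 in HCN4FEA and 5.88, 5.75 and 6.18 in WT SAN, a difference of 0.26 (-0.08 to 0.59, adjusted p = 0.869). WT 3 lay within the HCN4FEA range, and WT 1 and WT 2 below it. Without WT 3 the difference was 0.38 and passed an unadjusted 0.05, and without WT 2 it was 0.17 and did not. The other X-linked subunit, Ndufa1, differed by -0.01 (its arrays spanned 9.81 to 9.95). Ndufb7, a subunit on the intermembrane-space side, read 9.62, 9.63 and 9.70 in HCN4FEA and 9.58, 9.53 and 9.54 in WT SAN. The 2 genotypes did not overlap, yet the difference was 0.10 (-0.12 to 0.33, adjusted p = 0.914). Ndufa3, of the proximal part, was separated in the other direction, with 9.61, 9.64 and 9.60 in HCN4FEA and 9.80, 9.68 and 9.69 in WT SAN, a difference of -0.11 (-0.34 to 0.13).

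**Figure D2:**
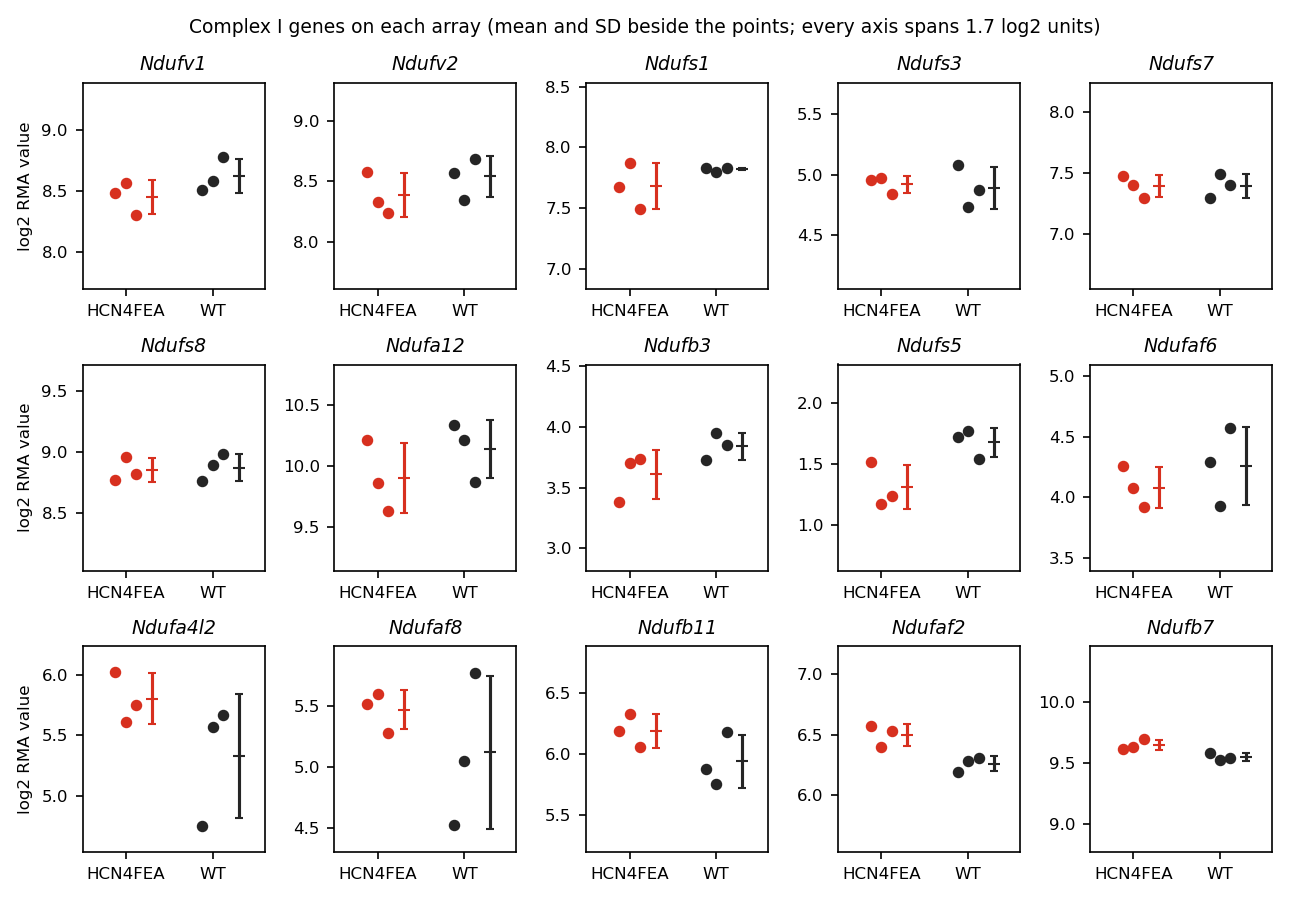
Log2 RMA values (y axis) of 15 complex I genes are plotted for each array of HCN4FEA (red, left) and WT (black, right), with the mean and SD of 3 arrays beside the points. Ndufs5, Ndufaf2 and Ndufb7 show no overlap between genotypes, and Ndufa4l2 and Ndufaf8 have a low WT 1 value of 4.75 and 4.52.

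The 8 assembly factors had a median of 0.01, with 4 above and 4 below 0. Ndufaf2, a paralogue of Ndufa12 that in human cells holds its place until late in assembly, read 6.57, 6.40 and 6.53 in HCN4FEA and 6.19, 6.28 and 6.31 in WT SAN. The genotypes did not overlap, and the mean was 6.50 ± 0.09 in HCN4FEA and 6.26 ± 0.06 in WT SAN (SD, n = 3 each). The difference of 0.23 (-0.01 to 0.48) had an unadjusted p of 0.0589 and an adjusted p of 0.823 with limma, and it passed the unadjusted threshold with an intensity trend, among probe sets averaging at least 4, and by the methods' t-test, as Ndufb7 did by the last of these. Ndufaf2 had a difference of 0.20 to 0.28 when any single array was left out and 0.18 without HCN4FEA 3 and WT 1. Ndufaf2 and Ndufa12 thus had differences of opposite sign, neither of which passed.

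Ndufaf8, which in human cells works with NDUFAF5 on the Q module, read 5.52, 5.60 and 5.28 in HCN4FEA and 4.52, 5.05 and 5.77 in WT SAN, a difference of 0.35 (-0.31 to 1.01, adjusted p = 0.904). The WT arrays alone spanned more than this difference, and without WT 1 the value was 0.06 and without WT 3 0.68 (unadjusted p = 0.0103). Ndufaf6, needed for early assembly of the Q side, read 4.26, 4.08 and 3.92 in HCN4FEA and 4.29, 3.93 and 4.57 in WT SAN, a difference of -0.18 (-0.59 to 0.23). Without WT 3 it was -0.03 and without WT 2 -0.34, while leaving out HCN4FEA 3 gave -0.10 and HCN4FEA 1 -0.27. The remaining factors differed by little. Ndufaf1, of the membrane arm assembly complex, differed by -0.08, Ndufaf3 and Ndufaf4, partners in Q module assembly, by 0.04 and -0.13, and the methyltransferase Ndufaf7 by 0.00.

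Ndufa4 is now known as a subunit of cytochrome c oxidase, and its levels of 10.34, 10.35 and 10.25 in HCN4FEA and 10.43, 10.26 and 10.25 in WT SAN did not differ beyond their spread (0.00, -0.25 to 0.25). Its paralogue Ndufa4l2, a hypoxia-inducible gene known to restrain complex I activity, read 6.02, 5.61 and 5.75 in HCN4FEA and 4.75, 5.57 and 5.67 in WT SAN. The mean was 5.80 ± 0.21 in HCN4FEA and 5.33 ± 0.51 in WT SAN (SD, n = 3 each), a difference of 0.47 (-0.10 to 1.04, adjusted p = 0.869). The low WT 1 array carried much of it, and without WT 1 the difference was 0.17. Without WT 3 it was 0.64 (unadjusted p = 0.0441).

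Of the genes with several probe sets, Ndufa8, Ndufa11 and Ndufa12 each had a second one of its own, and in each case both had the same sign. The probe sets shared with another gene or a copy differed by 0.14 (Ndufs1 with Ino80dos), -0.02 and -0.11 (Ndufs6 with Ndufs6b), 0.01 (Ndufb4 with its copies) and -0.01 (Ndufb2 with Adck2). Their signal cannot be divided between the genes named.

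Complex I values were often lowest on the array HCN4FEA 3. It gave the lowest of the 6 values for 19 of the 42 genes (45.2%), against 19.0% of genes averaging at least 4, and lay below the gene's mean for 36. Among the HCN4FEA arrays it was the lowest for 32 genes (76.2%), against 39.1% of genes averaging at least 4. Averaged over the 42 genes, the deviation from each gene's mean was 0.05, 0.02 and -0.10 in HCN4FEA and -0.03, -0.02 and 0.08 in WT SAN. The low values of HCN4FEA 3 were found in all 3 core N module genes and in 8 of 9 proximal membrane arm genes, but in 4 of 8 assembly factors, counted as the lowest HCN4FEA array. Among subunits the count was 27 of 32, with a mean deviation of -0.12 on HCN4FEA 3. Among 13 further complex I assembly factors without an Nduf symbol the count was 9 (69.2%), with a mean deviation of -0.14. The 8 assembly factors above had a mean deviation of -0.05 on that array. The genotype means of the deviation were -0.01 ± 0.08 in HCN4FEA and 0.01 ± 0.06 in WT SAN (SD, n = 3 each), so arrays of 1 genotype differed more than the genotypes.

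**Figure D3:**
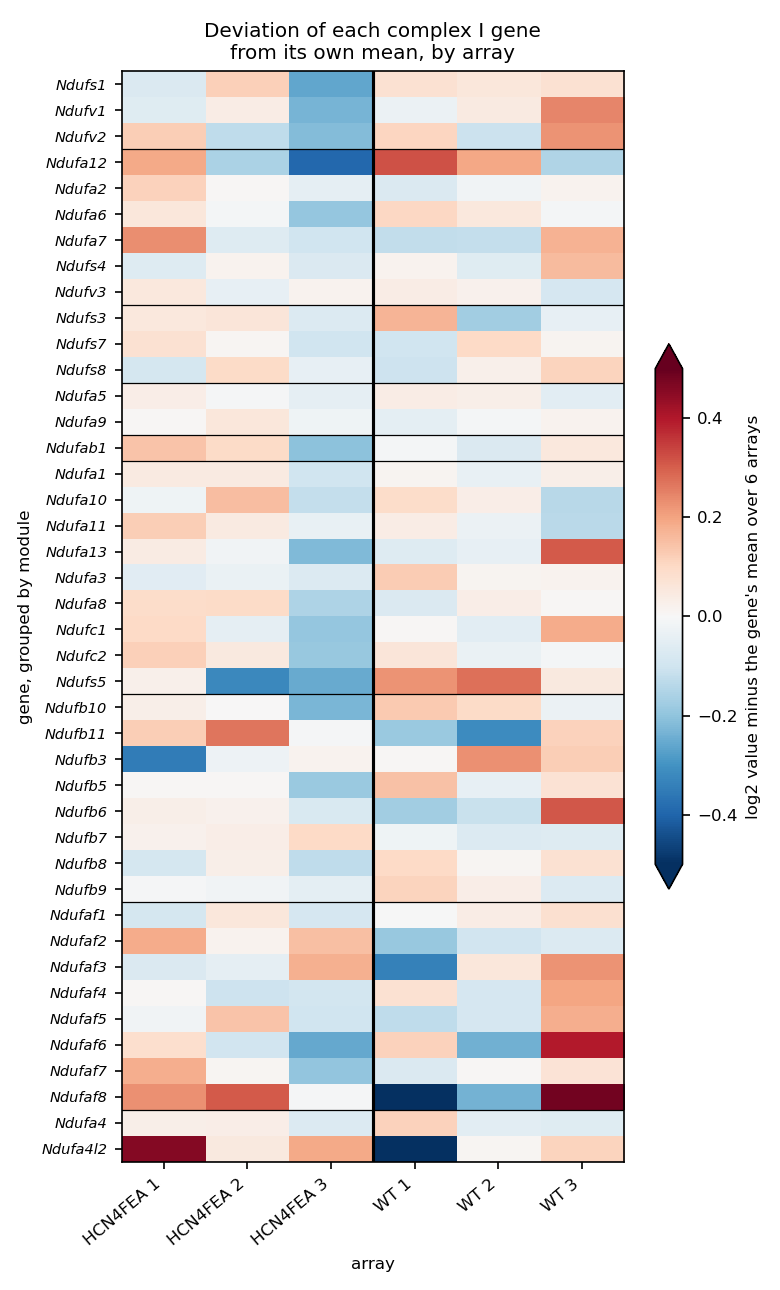
Each cell gives the log2 value of a gene (rows, grouped by module) on an array (columns, HCN4FEA left and WT right) minus the mean of that gene over 6 arrays, in colour from blue (lower) to red (higher). The column of HCN4FEA 3 is blue for most subunits, below the gene's mean for 36 of the 42 genes.

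Other lists moved on the same array. HCN4FEA 3 was the lowest HCN4FEA array for 37 of 48 genes of respiratory complexes II to V (77.1%), for all 14 measured genes of mitochondrial NADH supply and for all 11 measured markers of working atrial myocardium. The mean deviation on that array was -0.10 for complexes II to V, -0.22 for NADH supply and -0.24 for the atrial markers, and the other arrays lay between -0.01 and 0.15 for these lists. Neuron markers (11 genes) averaged 1.59 on HCN4FEA 3 and 1.01 on WT 1, against -0.49 to -0.86 on the others. WT 1, with the neuron transcripts also high, had a complex I mean of -0.03 and an atrial mean of 0.15. Fibroblast and endothelial markers averaged 0.06 and 0.08 on HCN4FEA 3, which was the lowest HCN4FEA array for 2 of 7 and 1 of 6 of them. The part of tissue composition in the complex I values was not tested.

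**Figure D4:**
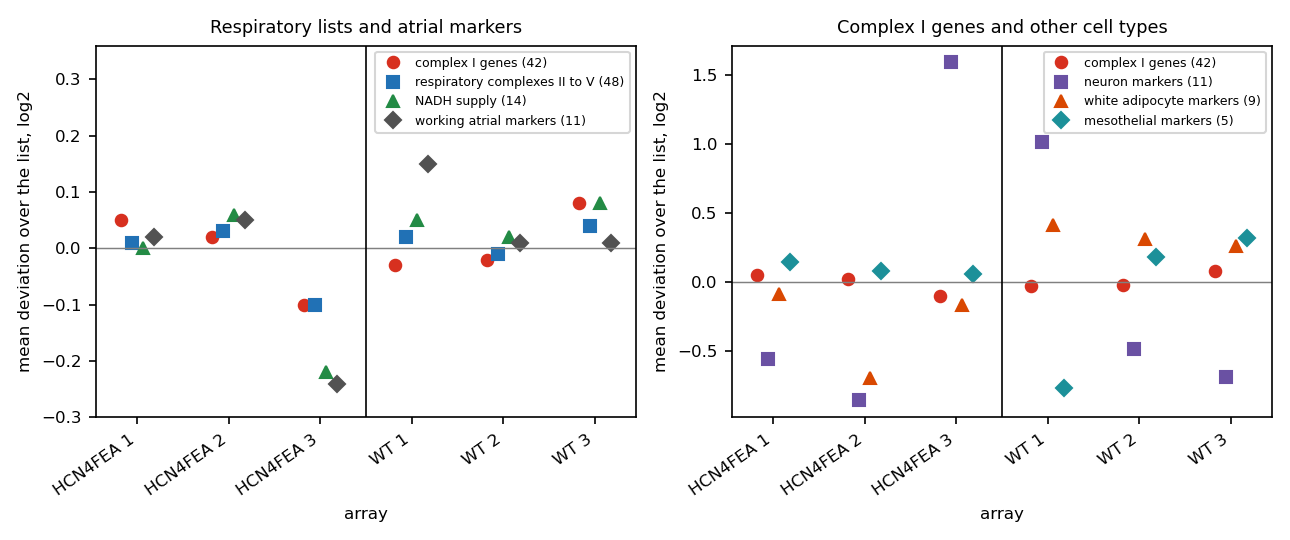
The mean deviation of a gene list from its genes' means (log2, y axis) is plotted for the 3 HCN4FEA arrays (left) and the 3 WT arrays (right), with the number of genes in the legend. Complex I genes, complexes II to V, NADH supply and atrial markers are all lowest on HCN4FEA 3 (left panel), where neuron markers reach 1.59 (right panel).

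Without HCN4FEA 3 the median difference of complex I genes was 0.01, and without both HCN4FEA 3 and WT 1 it was 0.00. No gene passed an unadjusted p of 0.05 in either case. White adipocyte markers averaged -0.09, -0.70 and -0.17 in HCN4FEA and 0.41, 0.31 and 0.26 in WT SAN, so the list means did not overlap. Single genes did not overlap in 4 of 9 cases (44.4%, against 11.2% of all probe sets). Fabp4 and Pnpla2, the brightest of them, differed by -0.06 and 0.03. The list was lowest on HCN4FEA 2, where complex I genes averaged 0.02, and 4 of its 9 genes were lower at an unadjusted p under 0.05. Fast skeletal muscle markers averaged 0.15, 0.09 and 0.23 in HCN4FEA and -0.23, -0.16 and -0.09 in WT SAN, with 7 of 10 differences above 0 and 3 genes higher at that threshold. Of these 10 genes 6 averaged under 4, and Ckm, the brightest, differed by -0.24. The genotypes did not overlap for 3 of them in the higher and 1 in the lower direction. Macrophage markers averaged 0.17, -0.05 and 0.19 in HCN4FEA and -0.21, -0.13 and 0.02 in WT SAN, with all 8 differences above 0 and 3 genes higher at that threshold. Over all probe sets 3.4% were higher and 2.71% lower. Of 8 brown fat markers Ucp1 was lower (-2.10, unadjusted p = 0.0193 with limma, adjusted p = 0.778), and of 5 ventricular markers Myh7 was lower (-1.19, unadjusted p = 0.00868 with limma, adjusted p = 0.764). Ucp1 read 1.45, 1.78 and 2.03 in HCN4FEA and 4.60, 5.05 and 1.91 in WT SAN, so the genotypes overlapped. The ventricular list averaged 0.07, 0.13 and -0.43 in HCN4FEA and 0.50, 0.07 and -0.33 in WT SAN, and the brown fat list -0.31, -0.08 and 0.11 in HCN4FEA and 0.27, 0.23 and -0.21 in WT SAN. In these 2 lists, 3 of 5 ventricular and 5 of 8 brown fat markers averaged under 4. A list of mitochondrial mass (11 genes) had a median difference of -0.03 with 0 genes past that threshold, and averaged 0.02, 0.04 and -0.06 in HCN4FEA and -0.04, -0.05 and 0.09 in WT SAN. The part of these cell types in the complex I values was not tested.

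Genes that work with complex I were examined in the same fit. Of 48 nuclear genes of complexes II to V the median was -0.04, with 34 below 0, and at an unadjusted p under 0.05 the calls were 1 lower and 0 higher (2.08%, against 6.1% of all probe sets). That gene, Cox7c, a small cytochrome c oxidase subunit, read 4.08, 3.93 and 3.97 in HCN4FEA and 4.46, 4.17 and 4.26 in WT SAN, a difference of -0.30 (-0.58 to -0.02, unadjusted p = 0.0364, adjusted p = 0.805). The 3 probe sets with the highest signal, those of Atp5e, Cox6a2 and Cox4i1, differed by 0.00, 0.03 and -0.02. The NADH supply genes encode dehydrogenases of the citric acid cycle and pyruvate oxidation. They were below 0 in 13 of 14 cases with a median of -0.10, and none passed. HCN4FEA 3 gave the lowest of the 6 values for 13 of the 14. The list averaged 0.00, 0.06 and -0.22 in HCN4FEA and 0.05, 0.02 and 0.08 in WT SAN. For comparison with both lists, 11906 of all 25341 probe sets and 3125 of the 7761 genes averaging at least 4 were below 0. Mdh2, Idh3g and Idh3b, the probe sets of highest signal, differed by 0.04, -0.03 and -0.19. Of 12 regulators of respiratory genes none passed. Their median size of a difference irrespective of sign was 0.13, against 0.08 for complex I genes and 0.11 for all probe sets. The regulators also had a larger median SD within genotypes, 0.245 against 0.119 and 0.172. Ppargc1a, the gene of PGC-1α, differed by -0.04. Of 13 further assembly factors of complex I, among them Ecsit (0.06) and Tmem126b (0.09), none passed.

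The differences of genes with and without a promoter word covered overlapping ranges. The 7 genes with the YY1 word had a median of -0.08 and ran from -0.12 to 0.35. The 7 with the NRF1 word had a median of -0.01 and ran from -0.37 to 0.09. The lower end was the Ndufs5 probe set, which was within the range of background signal, and the next lowest was Ndufaf4 at -0.13. The other genes with a promoter stretch had a median of -0.01 in either grouping.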

How the data were processed

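Total RNA of dissected SAN tissue was measured on 6 arrays, 3 from HCN4FEA and 3 from WT mice, grouped by the sample labels. Signals had been computed by the authors with RMA in Affymetrix Expression Console 1.0 and passed to Partek 6.5, and these deposited log2 values entered the fits unscaled. The probe set identifiers belong to a later array version than that named in the methods, and its genome build was not given in the sources used here.

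All 25341 of 41345 probe sets with at least 1 symbol were fitted with limma 3.58.1 in R 4.3.3, with genotype as the only term and Benjamini-Hochberg adjustment over them all. Single genes also had an exact permutation test, two-sided. The number of arrays limits the precision. Dim probe sets were kept. Promoter words were searched with Python 3.11.15.

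Values on every array are given for genes past an unadjusted p of 0.05, the 5 highest and 5 lowest differences, and the measured nuclear core subunits; Ndufa3, Ndufa4 and the probe set shared by Ndufs5 and its pseudogene were added after their values were seen. Of other lists, genes past that p and up to 3 with the highest mean may be named, and sex-linked genes check the labels. The genes and lists were chosen with earlier results of these data known. Alternatives covered the test, variance model, scaling, filter, probe set choice, replicate block and arrays left out.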

Additional observations from a re-analysis of the deposited data

How the results depend on the processing

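No complex I gene passed after adjustment in the limma fit. The count at an unadjusted p under 0.05, 1 gene (Ndufs5), was 2 with an intensity trend (Ndufs5 and Ndufaf2) and 2 by the methods' t-test (Ndufaf2 and Ndufb7). It was 1 among probe sets averaging at least 4, where Ndufaf2 took the place of the dim Ndufs5. Leaving out 1 array at a time gave 0 to 4, with 0 without HCN4FEA 2, HCN4FEA 3, WT 1 or WT 2 and 4 without WT 3 (Ndufa4l2, Ndufaf8, Ndufb11 and Ndufs5). The count of separated genes, 4, became 6 to 12 with 1 array fewer and 15 without HCN4FEA 3 and WT 1, a pair left out after seeing the data; fewer arrays separate more easily. Without that pair the count past p was 0. The overall median stayed between -0.05 and 0.01. The core Q module median was -0.06 without WT 1 and the distal arm median -0.01 without the pair.

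Deviations of equally numbered HCN4FEA and WT arrays had correlations of -0.0489, 0.0872 and -0.0333, and 2 of 6 arrays were closest to their own number. With so few arrays this cannot show whether they were paired. With the replicate block 1 gene passed an unadjusted p of 0.05 with limma, and no other call changed. The 4 separated genes and the median of -0.01 could not change, because the block alters neither the array values nor the differences.

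The sign of 18 genes, all with a difference of at most 0.10 in size, turned under at least 1 of the alternatives, and 24 never turned. Centring arrays on the median turned Ndufa10 to -0.01. Without HCN4FEA 3 and WT 1, Ndufa1 was 0.05, Ndufa4 0.09, Ndufa5 0.02, Ndufa6 0.00, Ndufaf3 -0.20, Ndufaf7 0.06, Ndufb9 0.01 and Ndufc2 0.11. With 1 array left out, the ranges that crossed 0 were -0.03 to 0.04 (Ndufa1), -0.07 to 0.07 (Ndufa10), -0.03 to 0.06 (Ndufa4), -0.04 to 0.01 (Ndufa5), -0.06 to 0.14 (Ndufa7), -0.02 to 0.10 (Ndufa8), -0.05 to 0.13 (Ndufab1), -0.12 to 0.16 (Ndufaf3), -0.05 to 0.11 (Ndufaf5), -0.10 to 0.09 (Ndufaf7), -0.11 to 0.13 (Ndufb6), -0.08 to 0.08 (Ndufc2), -0.05 to 0.12 (Ndufs3), -0.06 to 0.04 (Ndufs7), -0.08 to 0.03 (Ndufs8) and -0.02 to 0.04 (Ndufv3). The cause was not tested.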
